A study of Arabidopsis thaliana with 4 samples.

Results

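The regions described here are peaks of the mutant protein LFY K249R, tested alone, that had no matching peak in either list made with the protein UFO. LEAFY (LFY) is a plant transcription factor that sets floral fate and switches on floral homeotic genes. UFO (UNUSUAL FLORAL ORGANS), a cofactor of LFY in petal and stamen formation, belongs to the F-box proteins, which recognise the partners of SCF ubiquitin ligases. Binding was read by ampDAP-seq, in which tagged protein is mixed with PCR-amplified genomic DNA and the DNA it retains is sequenced. The assay has no chromatin and no DNA methylation, so it reads binding to naked DNA outside the cell.

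The DNA came from wild-type Arabidopsis thaliana Col-0 seedlings 2 weeks old, in every sample alike. The LFY K249R sample held 5xmyc-LFY_K249R, made by in vitro translation, in which a lysine of LFY is replaced by arginine. The LFY K249R + UFO sample held the same mutant protein with the recombinant complex ASK1-UFO-3xFLAG, where ASK1 is the SKP1-like adaptor that links an F-box protein to the ligase. The LFY + UFO sample held unmutated 5xmyc-LFY with that complex. The series has 4 samples. The input DNA without tagged protein was not analysed here. None of the 4 samples held unmutated LFY without UFO, so an effect of the mutation without UFO cannot be read.

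A peak of the LFY K249R list was taken as a LFY K249R-only site when its centre lay more than 200 bp from every peak centre of both lists made with UFO. This gave 879 of 9956 LFY K249R peaks, in a series of 37490 listed peaks in all. Of the other LFY K249R peaks, 7044 had a partner in both lists made with UFO. A further 1273 had a partner only in the LFY + UFO list and 760 only in the LFY K249R + UFO list. Each list is 1 merged result per condition, from 2 replicates for each mutant list and from 3 for LFY + UFO, and gives positions without a height or a p-value. No spread between replicates could therefore be measured and no test between conditions was made. Intervals below are 95% exact binomial intervals over peaks, or Newcombe intervals for a difference of 2 shares. They cover counting error only, because peaks are not replicates. Read depth is unknown, and a site below the calling threshold cannot be told apart from an unbound one.

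The lists themselves chose these sites, so their distances to the other lists are a description. The closest sites to the limit lay 211, 218, 221, 223 and 225 bp from the nearest centre of another list. The LFY K249R peaks nearest to the limit on its other side lay 189, 183, 181, 180 and 170 bp away. Few peaks thus sat at the boundary. The median distance to the nearest centre of either list was 2247 bp, with quartiles of 1056 and 4797 bp and a largest value of 85919 bp. Only 50 of the 879 sites lay 400 bp or less from another list's centre, where the 400-bp intervals can still touch. The distance was between 5 and 10 kb at 156 sites and over 10 kb at 58.

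The nearest foreign centre was a LFY + UFO centre for 630 sites (71.7%, 68.6% to 74.6%) and a LFY K249R + UFO centre for 240 (27.3%). The LFY + UFO list is also the longest of the 3, with 18957 peaks against 8577 for LFY K249R + UFO. The median distance was 2405 bp to LFY + UFO and 4888 bp to LFY K249R + UFO.

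**Figure D1:**
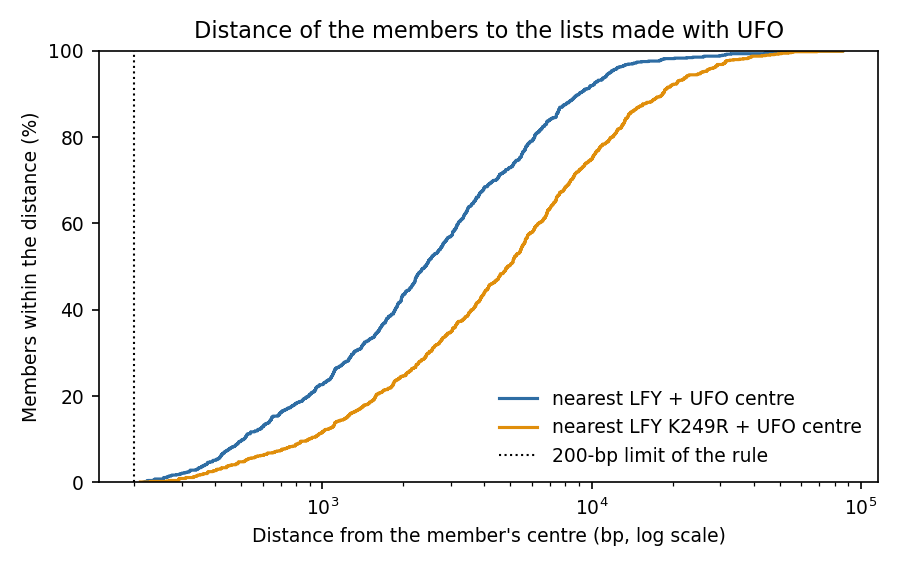
Cumulative share of the 879 LFY K249R-only sites (y axis, percent) against the distance from the site's centre to the nearest centre of each list made with UFO (x axis, bp on a log scale). The dotted line is the 200-bp limit. The curve for LFY + UFO, with a median of 2405 bp, lies to the left of the curve for LFY K249R + UFO, with a median of 4888 bp.

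Most of these sites stood alone, as did most LFY K249R peaks of every other class. An overlap with another peak of their own list was found for 28 of 879 (3.19%, 2.13% to 4.57%), against 2.36% (2.02% to 2.74%) of the peaks in both other lists. The share was 3.82% (2.57% to 5.43%) for peaks shared with LFY K249R + UFO alone. It was 2.83% (1.99% to 3.89%) for those shared with LFY + UFO alone. In 24 of the 28 cases among the sites, the overlapped peak was one also found with UFO. The median distance to the next peak of the LFY K249R list was 4063 bp (3704 to 4515 bp) for the sites and 3909 bp (3775 to 4035 bp) for peaks in both other lists, with overlapping intervals.

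Neighbouring LFY K249R-only sites were a median of 87526 bp apart, and 6 of 874 neighbouring pairs had centres under 1000 bp apart. The closest pair, 277 bp apart, was chr3:20377714-20378113 and chr3:20377991-20378390, outside genes between SMZ, an AP2-type repressor of flowering, and TON1A, a protein of the cortical microtubule array. The next, 293 bp apart, was chr3:16405597-16405996 and chr3:16405890-16406289, beside CHX10, a member of the cation/proton exchanger family. A pair 525 bp apart on chromosome 5 (chr5:26116450-26116849 and chr5:26116975-26117374) lay beside HTR11, a histone H3-like gene. One pair 821 bp apart had PDF1.2, a plant defensin gene, as a neighbour. Of the 6 pairs, 5 lay outside annotated genes and 1, on chromosome 5, lay inside the body of AT5G43190. These pairs were picked for their spacing after the values were seen.

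The rule did not use where a peak lies relative to genes, and the sites differed in it from other LFY K249R peaks. Of the 879 sites, 488 had their centre outside every annotated gene, a share of 55.5% (52.2% to 58.8%). Over all LFY K249R peaks the share was 41.0%, and over all bases of the 5 nuclear chromosomes it was 35.9%. Peaks found in both other lists were outside genes in 38.5% (37.4% to 39.7%) of cases, which is 17.0 percentage points below the sites (interval of the difference 13.5 to 20.4). Peaks shared with LFY + UFO alone were outside genes in 30.6% (28.1% to 33.3%), which is 24.9 points below (20.7 to 29.0). Peaks shared with LFY K249R + UFO alone stood higher, at 65.0% (61.5% to 68.4%), and the sites were 9.48 points under them, a difference of -9.48 points (-14.2 to -4.73).

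The 4 classes of LFY K249R peaks thus split by presence in the LFY + UFO list. Both classes without a LFY + UFO partner lay outside genes more often than all LFY K249R peaks, and both classes with one less often, as the intervals of the 4 shares and the 41.0% of all peaks show. The whole LFY + UFO list was itself outside genes less often, in 29.2% of cases, against 40.8% for the whole LFY K249R + UFO list. The part of this list composition in the split was not tested. Among peaks with a LFY + UFO partner, those also in the LFY K249R + UFO list were outside genes more often, by 7.89 points (5.07 to 10.6). Among peaks without one, the difference of -9.48 points for the sites was -3.12 points (-7.94 to 1.73) when the whole interval had to lie outside genes. By centres, it was -0.957 points (-10.8 to 9.55) close to each chromosome's largest gap in the list (2 Mb or less from its middle). That part held 178 sites and 111 peaks shared with LFY K249R + UFO alone. Farther away, with 701 sites and 649 such peaks, the difference was larger, at -12.5 points (-17.7 to -7.25).

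On single chromosomes the share of sites outside genes was 54.6%, 62.1%, 47.7%, 59.3% and 54.5% for chromosomes 1 to 5. It was above that of peaks in both other lists on 5 of 5 chromosomes, by 7.17 to 22.0 points. The interval of the difference excluded 0 on 4 of them, the exception being chromosome 3, which had the smallest difference. Compared with peaks shared with LFY + UFO alone, the sites were higher on 5 of 5 chromosomes, by 18.5 to 30.6 points, each with an interval above 0. Compared with peaks shared with LFY K249R + UFO alone they were lower on 4 of 5, with an interval that excluded 0 on 3 of them.

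**Figure D2:**
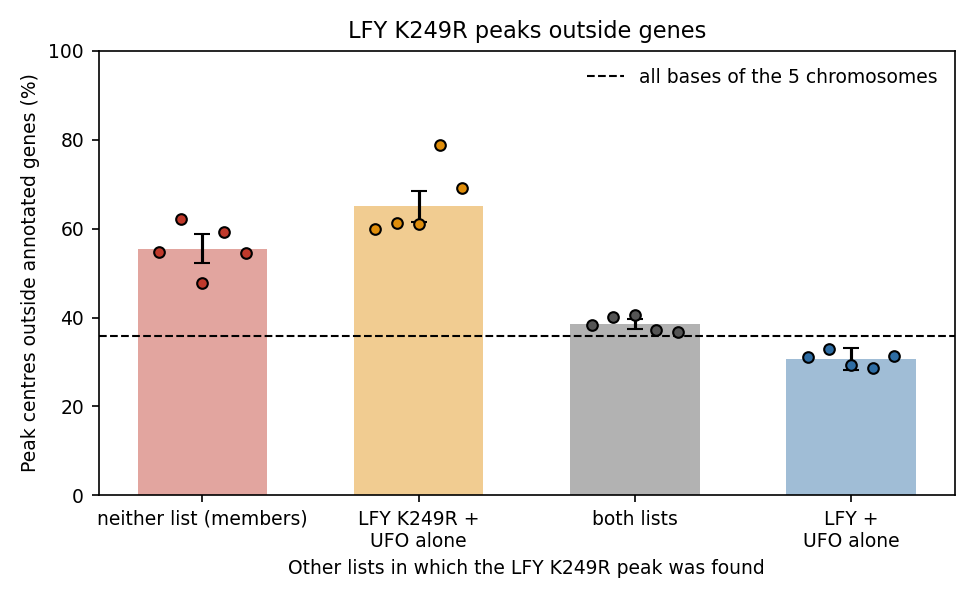
Share of LFY K249R peak centres outside annotated genes (y axis, percent) by the other lists that held the peak (x axis). Bars are all chromosomes with exact 95% binomial intervals, points are chromosomes 1 to 5 from left to right, and the dashed line at 35.9% is the share of all bases. The 2 classes without a LFY + UFO partner stand at 55.5% and 65.0%, the 2 with one at 38.5% and 30.6%.

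Peaks found in a single list were compared in the same way. The 243 LFY K249R + UFO peaks in neither other list were outside genes in 59.7% (53.2% to 65.9%) of cases. Their difference from the LFY K249R-only sites was -4.15 points with an interval of -11.0 to 2.91, so these counts show no direction. Of the 10088 LFY + UFO peaks without a partner in a mutant list, 22.8% (21.9% to 23.6%) lay outside genes, which is below the 35.9% of all bases. The LFY K249R-only sites were 32.8 points above them (29.4 to 36.1).

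The ground around the sites was also poorer in genes than that around peaks in both other lists. Within 5 kb either side of a site's centre, a mean of 41.2% of bases was outside genes, against 34.6% around those peaks. The surroundings were not particular to the sites. The mean was 41.8% around peaks shared with LFY K249R + UFO alone and 41.2% around LFY K249R + UFO peaks in neither other list. The centres exceeded their local share by 14.3 points for the sites and by 3.90 points for peaks in both other lists. The peaks shared with LFY + UFO alone differed from their local share by -2.09 points. The excess over the local share was thus larger for the sites than for either class with a LFY + UFO partner, and it was 23.2 points for peaks shared with LFY K249R + UFO alone.

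Outside genes, the sites lay a median of 628 bp (530 to 702 bp) from the nearest gene edge, against 470 bp (430 to 499 bp) for peaks in both other lists. The gene-free gaps that held them were longer, with medians of 2917 bp (2591 to 3197 bp) and 2320 bp (2236 to 2458 bp). Farther than 2 Mb from the middle of a chromosome's largest gap in the list, the contrast in edge distance was smaller. The medians there were 524 bp (436 to 627 bp) and 434.5 bp (411 to 476 bp), with overlapping intervals. The gene-free gaps there had medians of 2702 bp (2410 to 3012 bp) and 2212 bp (2117 to 2309 bp), with intervals apart. In all, 36.97% of the sites (33.8% to 40.3%) were outside genes but within 1000 bp of one, the space in which most plant promoters and terminators lie. A further 18.5% (16.0% to 21.3%) were farther than 1000 bp from any gene, against 10.2% of peaks in both other lists, a difference of 8.35 points (5.81 to 11.1). Peaks shared with LFY K249R + UFO alone were close to the sites in these measures, with a median of 546 bp (477 to 612 bp) to the nearest edge, a median gap of 2642 bp (2441 to 2853 bp) and 19.3% (16.6% to 22.3%) farther than 1000 bp from a gene. Only 16 sites, or 1.82%, were more than 3000 bp from a gene. The gene table used here gives no strand, so the start and the end of a gene were not told apart.

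Between 1000 and 1500 bp from a gene edge, a range singled out after the values were seen, 92 sites were counted, or 10.5% (8.52% to 12.7%). The share was 4.74% for peaks in both other lists and 4.23% for all bases. From 0 to 500 bp outside a gene the sites held 24.1% (21.3% to 27.1%), against 20.02% (19.1% to 21.0%) for peaks in both other lists and 11.7% for LFY + UFO peaks without a mutant partner. Peaks shared with LFY K249R + UFO alone held more than the sites there, 30.3% (27.0% to 33.7%), and from 1000 to 1500 bp they held 8.82% (6.90% to 11.1%).

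**Figure D3:**
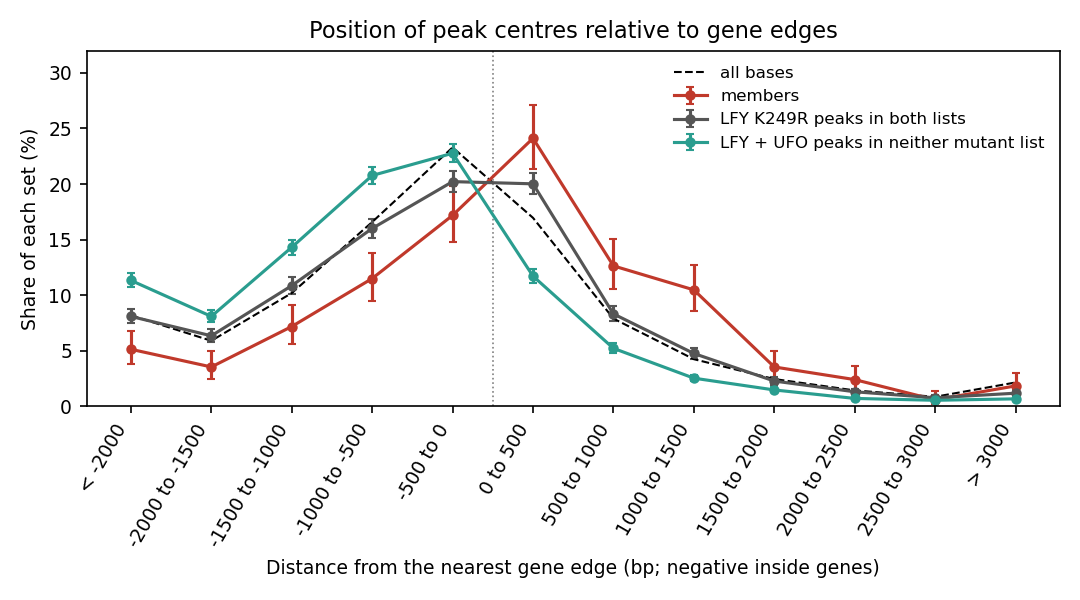
Share of each set of peak centres (y axis, percent) by distance from the nearest gene edge (x axis, bins of 500 bp with open bins at both ends, negative inside genes). Error bars are exact 95% binomial intervals and the dashed line is all bases of the 5 chromosomes. Among the sets drawn, the LFY K249R-only sites are highest from 0 to 1500 bp outside genes, and the LFY + UFO peaks without a mutant partner lie below them.

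Inside genes, 342 of the 879 sites had their centre in a protein-coding gene, 38.9% (35.7% to 42.2%). The share over all LFY K249R peaks was 53.8%. The sites fell in 346 protein-coding genes, counting both genes where 2 overlap, and 4 genes held 2 sites each. One of the 4 was PRHA, a homeobox gene named for its link to pathogen response. Annotated pseudogenes held 40 sites (4.55%, 3.27% to 6.15%), against 3.85% of peaks in both other lists, 4.01% of all LFY K249R peaks and 8.68% of all bases. The sites and the peaks in both other lists differed by 0.703 points, with an interval of -0.579 to 2.35. It was -4.73 points (-10.5 to 2.09) within 2 Mb of the middle of a chromosome's largest gap in the list. Farther away it was -0.436 points (-1.18 to 0.782). All these intervals included 0, so the counts show no direction for pseudogenes between these 2 sets. Against peaks shared with LFY + UFO alone, the difference was -11.7 points (-22.2 to -1.79) within 2 Mb. Over all positions it was 0.073 points (-1.68 to 1.95). Against LFY + UFO peaks without a mutant partner it was -19.7 points (-25.5 to -12.7) within 2 Mb and -1.22 points (-2.50 to 0.428) over all positions. Against peaks shared with LFY K249R + UFO alone it was -2.97 points (-12.6 to 5.90) within 2 Mb.

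The sites occurred on all 5 chromosomes, at 6.52 to 8.99 per Mb. Their share of the LFY K249R peaks was 8.59%, 8.73%, 7.99%, 10.5% and 8.73% on chromosomes 1 to 5. The highest share, on chromosome 4, had an interval of 8.99% to 12.1%, and those of the other chromosomes overlapped it. Every one of the 121 bins of 1 Mb with a LFY K249R peak held at least 1 site, with a median of 7. The bin with most sites, from 4 to 5 Mb on chromosome 4, had 22 sites among its 58 LFY K249R peaks (37.9%, 25.5% to 51.6%). It was picked from the 121 bins after the values were seen, and its interval makes no allowance for that choice. The start of that bin lies in the longest peak-free stretch of the chromosome.

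Each chromosome has such a stretch, from 136.7 kb on chromosome 4 to 504.7 kb on chromosome 1. The stretches were defined from the LFY K249R list, and no centromere annotation was used. The share of sites among LFY K249R peaks fell with distance from the middle of the stretch. It was 20.4% (16.7% to 24.5%) within 1 Mb, 13.5% (11.0% to 16.3%) from 1 to 2 Mb and 9.93% (8.55% to 11.5%) from 2 to 4 Mb. Beyond 10 Mb it was 6.40% (5.54% to 7.35%). The share of peaks shared with LFY K249R + UFO alone was 8.67% (6.17% to 11.7%) within 1 Mb, 10.9% (8.69% to 13.5%) from 1 to 2 Mb and 6.47% (5.61% to 7.42%) beyond 10 Mb. The share of peaks shared with LFY + UFO alone was lowest within 1 Mb, at 7.96% (5.58% to 10.9%). It rose unevenly, to 16.0% (14.2% to 18.0%) at 8 to 10 Mb, and was 13.3% (12.1% to 14.6%) beyond 10 Mb.

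**Figure D4:**
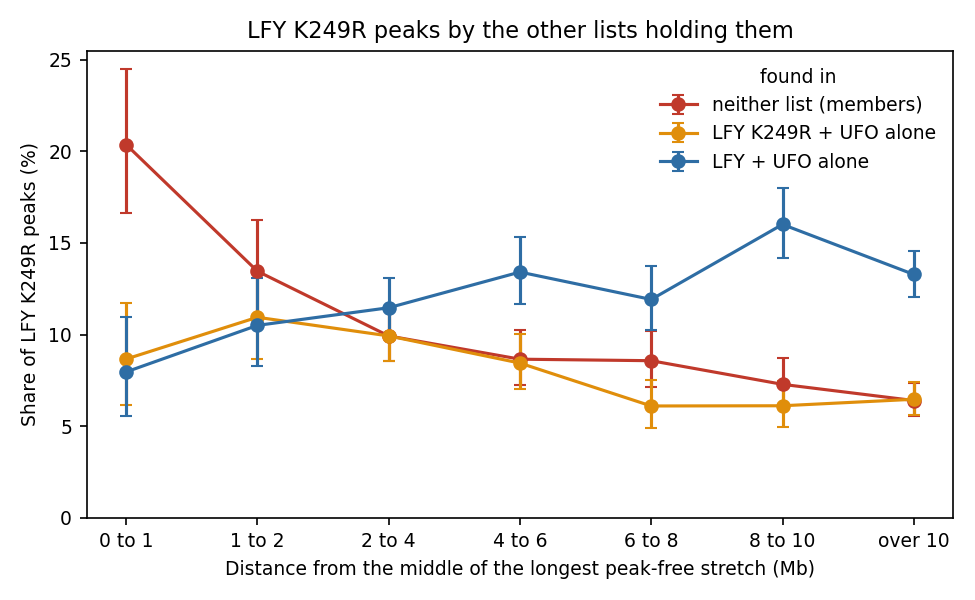
Share of LFY K249R peaks (y axis, percent) that were found in neither, in one or in the other list made with UFO, by distance from the middle of the longest peak-free stretch of the chromosome (x axis, Mb). Points are shares over all 5 chromosomes with exact 95% binomial intervals. The share found in neither list drops from 20.4% within 1 Mb to 6.40% beyond 10 Mb.

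Of the 879 sites, 20.3% (17.6% to 23.1%) lay 2 Mb or less from a stretch's middle, where 11.1% of all LFY K249R peaks and 16.8% of all bases lie. Peaks shared with LFY K249R + UFO alone had 14.6% (12.2% to 17.3%) there, 5.65 points less (1.96 to 9.28). The LFY K249R + UFO peaks in neither other list had 8.64% (5.43% to 12.9%). With a limit of 4 Mb the difference between the sites and the peaks shared with LFY K249R + UFO alone was 2.65 points, with an interval of -2.06 to 7.33. Sites far from the other lists were more often in these regions. The share within 2 Mb was 6% (1.25% to 16.5%) of the 50 sites at 200 to 400 bp from another list's centre and 56.9% (43.2% to 69.8%) of the 58 sites beyond 10 kb. All 3 lists are sparse there, with 11.1% of the LFY K249R, 10.3% of the LFY K249R + UFO and 9.07% of the LFY + UFO peaks on 16.8% of the bases. The part of this sparseness in the distances was not tested.

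The difference in the share outside genes was also present away from these regions. Farther than 2 Mb from the stretches, 50.6% (46.9% to 54.4%) of 701 sites were outside genes, against 36.6% of peaks in both other lists. The difference was 14.1 points (10.2 to 18.0). Within 2 Mb, 74.7% (67.7% to 80.9%) of 178 sites were outside genes, against 56.1%, a difference of 18.6 points (10.8 to 25.5). Between 4 and 6 Mb from the stretches the difference was 4.72 points and between 8 and 10 Mb it was 7.92 points, both with intervals that included 0. In the other 5 bands of distance it ran from 14.3 to 19.1 points with intervals above 0.

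The most isolated site, chr5:11993276-11993675, lay 85919 bp from the nearest LFY K249R + UFO centre and 85935 bp from the nearest LFY + UFO centre. It bounds the peak-free stretch of chromosome 5 and lies outside genes, 932 bp from the nearest pseudogene. Next came 2 neighbours on chromosome 3, chr3:13155870-13156269 and chr3:13153513-13153912, whose centres were 2357 bp apart. Both lay between the same 2 pseudogenes, and the nearest centre of another list was more than 53 kb away. The site chr1:8797962-8798361, 44243 bp from the nearest LFY + UFO centre, lay 6.38 Mb from the middle of the stretch of its chromosome. The last of the 5, chr1:14224792-14225191, was 39380 bp from a LFY K249R + UFO centre and 0.9497 Mb from the middle of the stretch. All 5 of these sites were outside genes, and 4 were within 1 Mb of a stretch's middle.

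The 45 genes of the fixed lists had these sites at a share near that of all protein-coding genes. Of the 45, 3 had one within 3 kb of the gene body, where 5.37% of the 27444 protein-coding genes did. All 3 were among the 16 genes of flower meristem and organ identity. None of 13 genes of flowering time and inflorescence, of 12 genes linked to LFY in earlier work or of 4 SCF subunits had one. Within 1 kb, 2 of the 45 had a site, against 2.83% of all protein-coding genes, and within 10 kb 6 of the 45, against 13.9%. These counts are close to the background, so the list as a whole did not stand apart. Within 3 kb, 40 of the 45 genes had a LFY K249R peak of any class, 39 a LFY K249R + UFO peak and 43 a LFY + UFO peak. Over all protein-coding genes, 52.1% had a LFY K249R peak within 3 kb, 47.4% a LFY K249R + UFO peak and 75.9% a LFY + UFO peak.

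AGAMOUS (AG), the class C gene for stamens and carpels, is a direct target of LFY. The site chr4:10385499-10385898 lay inside the body of AG, 2840 bp from one end and near the middle of the gene. It overlapped a second LFY K249R peak whose centre was 338 bp away. That second peak was present in both lists made with UFO, at 343 and 345 bp from the site. Another position in AG, 934 bp from the site, was also held in all 3 lists. The LFY K249R-only site in AG was thus a flank of a pair of shared peaks.

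APETALA1 (AP1), a floral meristem identity gene that LFY activates, had 2 such sites in its window. The site chr1:25984832-25985231 lay inside the gene, 1317 bp from one end, and the nearest centre of another list was 1487 bp away. That nearest position, just beyond this same edge of the gene, was present in all 3 lists. The second site, chr1:25981125-25981524, lay 969 bp from the other end of AP1, inside the neighbouring gene AT1G69100, and 560 bp from a position held in all 3 lists. FRUITFULL (FUL), a close relative of AP1 that acts in meristem identity and fruit development, had the site chr5:24507096-24507495 at 1027 bp from the gene, outside genes. The nearest centre of another list was 1946 bp away, inside FUL, and was again held in all 3 lists. The distances at AP1 and FUL compare with a median of 2247 bp over all 879 sites.

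**Figure D5:**
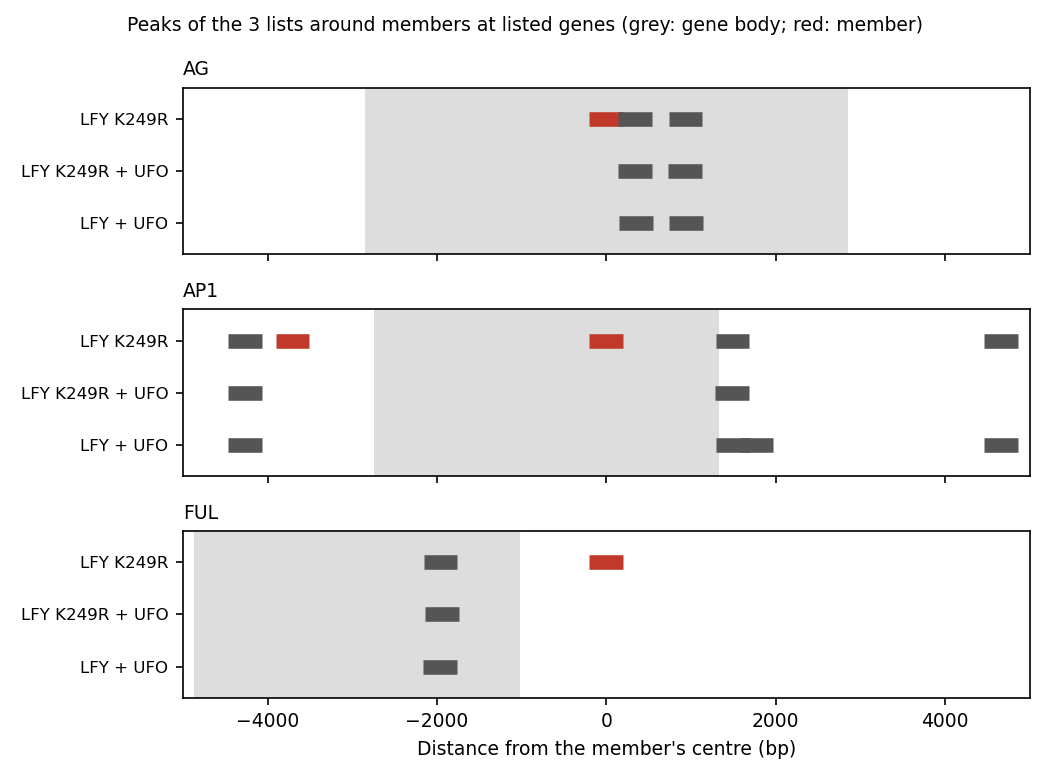
Peaks of the 3 lists (rows) within 5000 bp of a LFY K249R-only site at AG, AP1 and FUL, by distance from that site's centre (x axis, bp). Bars are the 400-bp intervals, red for LFY K249R-only sites and grey for other peaks, and the shaded area is the gene body. At AG the site overlaps a shared peak 338 bp away, at AP1 a second site lies 3707 bp from the first, and at FUL the nearest shared centre is 1946 bp away.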

How the data were processed

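The authors deposited 3 peak lists of bare positions, all intervals 400 bp wide. Replicates were merged before deposit, per the series' design text. Bowtie2, SAMtools, MACS2 and the build TAIR10 are named in the submitters' processing notes. Their versions, thresholds and use of the input are not given in the sources used here. Genes came from the RefSeq table of assembly TAIR10.1, an update of TAIR10 with the same nuclear chromosomes, and no gene coordinates are printed. As a check of the register, 41.0% of LFY K249R centres lay outside genes as listed, and 34.3% to 35.3% with centres shifted by 2 to 20 kb. No genome sequence was used. Overlapping genes of any kind, 37899 in all, were merged to 31620 blocks, and a centre in no block was outside genes. The 45 listed genes were matched by symbol or synonym, 5 of them by a synonym because the symbol names 2 genes. Members, lists and windows were chosen with earlier results of these data known. The rule for naming took listed genes with a site within 3 kb and the 5 sites farthest from the other lists. The part on motif scores was not applied for want of sequence. Genes beside close pairs of sites, and PRHA, were chosen after their values were seen. Planned motif, base composition and repeat analyses were not made. The planned promoter and gene windows were applied on both sides of a gene for want of strand. The functions were tested on simulated lists. Tools were scipy 1.17.1, statsmodels 0.14.6, numpy 2.4.6, pandas 2.3.3 and matplotlib 3.10.9 under Python 3.11.15. No p-value was computed.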

Additional observations from a re-analysis of the deposited data

How the results depend on the processing

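For 12 results, 116 alternatives were computed, and 105 met the rule for their kind of result. A difference had to keep its sign with an interval that excluded 0. A share had to stay inside the main interval, and a count within 1.5 times the main count. The number of sites was 669 to 937 under the 4 distance rules and 663 to 734 with a chromosome left out. None changed direction. Distance rules of 80, 100, 400 and 1000 bp and leaving out each chromosome kept the sign of each difference between the sites and the other classes. The share of sites outside genes became 45.96% when no base of the interval could lie in a gene, 50.6% beyond 2 Mb from the stretches and 61.1% with protein-coding genes only, a setting chosen after seeing the data. The first of these settings moved the difference from peaks shared with LFY K249R + UFO alone to -3.12 points, with an interval of -7.94 to 1.73. The share outside genes within a flank was 24.2% for 500 bp and 53.7% for 3000 bp, by construction. The share near the stretches was 9.90% for 1 Mb and 39.4% for 4 Mb, also by construction, and 23.8% for sites over 1000 bp from other centres. The near difference from peaks shared with LFY K249R + UFO alone was 2.65 points at 4 Mb. A gene window of 10 kb gave 6 listed genes. No paired analysis was possible because the authors merged the replicates of each preparation, and leaving out a replicate was not possible either. Alternatives that need sequence were not run. The unknown depth limits every statement on a peak missing from a list.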
